A study of Mus musculus with 24 samples.

Results

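The mRNA of 8 hepatic drug and bile transporters was followed in 24 mouse liver libraries. The genes were picked by name and comprise 4 uptake carriers of the blood-facing membrane (Slco1a1, Slco1b2, Slco2b1 and Slc22a7), 3 pumps of the bile-facing membrane (Abcb4, Abcc2 and Abcg2) and 1 pump that returns compounds to blood (Abcc3). All 8 were among the 54733 genes listed in every library, and all 8 had a mean of at least 1 FPKM, the limit that left 11244 genes for testing. FPKM is the number of sequenced fragments of a gene, scaled by transcript length and by the size of the library, so levels can be compared between genes. The livers came from adult male C57BL/6 mice kept in constant darkness, either wild type (WT) or ΔRRE mutants. In the mutants, CRISPR-Cas9 had removed both RREs next to the start of Bmal1, the sites through which REV-ERB repressors and ROR activators make that clock gene oscillate. The study's methods name a single mutant line as the default, so effects of the deletion and of that line cannot be told apart. Each genotype had 2 libraries at each of 6 circadian times (CT2, CT6, CT10, CT14, CT18 and CT22), 12 per genotype. Each value is the RNA of a whole liver sample at 1 time, so no animal was followed over the day, and the p-values below measure the spread between such livers.

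Hepatocytes take organic anions, bile salts and drugs from portal blood through OATP carriers, the products of the Slco genes, and through OAT2, the product of Slc22a7. Metabolites then leave across the canalicular membrane into bile through ATP-driven pumps: MDR3-type Abcb4 moves phosphatidylcholine, MRP2 (Abcc2) moves conjugates such as bilirubin glucuronide, and BCRP (Abcg2) moves urate, sulfates and many drugs. MRP3 (Abcc3) works on the opposite face and sends glucuronides back to blood. The question put to these genes was whether their mRNA varied over the day and whether that variation or the level depended on the rhythm of Bmal1 mRNA.

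In the GRCm38 (mm10) annotation of GENCODE M21 the 8 genes lie on 6 chromosomes. Slco1b2 (chr6:141629518-141686646, plus strand) and Slco1a1 (chr6:141907282-141946962, minus strand) belong to the Slco1 cluster on chromosome 6, which also carries Abcg2 (chr6:58584523-58695676, plus strand) at a distance. Abcb4 lies at chr5:8893717-8959231 (plus strand), Slco2b1 at chr7:99657804-99711340 (minus strand), Abcc3 at chr11:94343295-94392997 (minus strand), Slc22a7 at chr17:46432183-46438457 (minus strand) and Abcc2 at chr19:43782192-43840740 (plus strand). Slco2b1 is overlapped on the other strand by the antisense genes Gm15635 and Gm34280, whose means were 1.35 and 0.117 FPKM. The misc_RNA gene Gm22036 lies inside Slco1a1 and had a mean of 2.27 FPKM, and the Slco1 and Mup families contain close copies, so reads shared among copies make those values less certain.

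RefSeq promoter windows (GRCm38.p6, 250 bases before and 50 after a start) were found for 6 of the 8 genes, 10 windows in all, and none for Slc22a7 and Abcc3. The windows were searched on both strands for the E-box CACGTG, the D-box TTATGTAA and its variant TTACGTAA, the RRE core AGGTCA, the antioxidant response element TGACNNNGC and the STAT motif TTCNNNGAA. No member window held the E-box or either D-box form, which were present in 7.15%, 0.938% and 0.119% of all 32851 windows. The RRE core was present in 5 of the 10 member windows, those of Slco1a1, Slco1b2 and Abcc2 and 2 of Abcg2, against 16.3% of all windows. The STAT motif occurred in 3 member windows (Slco1b2 and Slco2b1) against 8.3% of all, and the antioxidant element in 1 (Abcc2) against 12.4%. A selection of the cores is printed because the full RRE pattern of the study ends in AGGTCA or GGGTCA. None of the printed sites matches that full pattern in the bases before the core. Each line is read 5′ to 3′ along the gene's strand, with the core or its reverse complement in capitals.
Slco1a1, 134 bases before the start, chr6:141947079-141947108, minus strand: tccaaatgagatTGACCTatgatctagcat
Slco1a1, 24 bases before the start, chr6:141946969-141946998, minus strand: ggttgtataagaAGGTCAagcaagtcttga
Abcg2, 212 bases before the start, chr6:58584309-58584338, plus strand: agttctgcatctTGACCTgcctgcatccag
Slco1b2, 81 bases before the start, chr6:141629425-141629454, plus strand: tgtgtaggacagTGACCTgaagagatagtt
Abcc2, 49 bases before the start, chr19:43782247-43782276, plus strand: tgtcaggatgaaAGGTCAggagacttgcct
A match is a run of letters and no evidence of binding.

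The targeted gene followed the labels. Bmal1, listed as Arntl, ranged from 0.0919 to 13.2 FPKM in WT, and its 24-h amplitude was 2.57 ± 0.31 log2 units (SE, adjusted p = 0.00102). In ΔRRE it ranged from 2.1 to 4.21 FPKM with an amplitude of 0.29 ± 0.09 (adjusted p = 0.156), and the difference in rhythm had an adjusted p of 0.0463. The 5 hepatocyte markers summed to between 31074 and 48592 FPKM in all libraries, while 5 lymphocyte markers stayed at or under 2.59 FPKM in sum. Other cell types were present at low levels: the summed markers ranged from 11.8 to 44.1 FPKM for cholangiocytes, from 12.1 to 61.9 for Kupffer cells, from 19.3 to 41.1 for endothelial cells and from 27.3 to 72.6 for stellate cells, and erythroid markers reached from 466 to 1537 FPKM in WT and from 537 to 4451 in ΔRRE. Their part in the results below was not tested. In bulk liver, fewer cells of a type and less RNA per cell cannot be told apart.

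Of the 24 libraries, 4 stood apart in the mean of a gene list that some of these transporters followed. A list of 6 genes that are higher in male than in female liver (Mup20, Elovl3, Cyp4a12a, Cyp7b1, Hsd3b5 and Selenbp2) had a mean log2 level of 5.57 to 6.65 in WT CT6 replicate 1, WT CT14 replicate 1, ΔRRE CT10 replicate 1 and ΔRRE CT14 replicate 1. The other 20 libraries lay between 7.39 and 8.56. Hsd3b5, a steroid reductase of male liver, was between 8.11 and 33.9 FPKM in these 4 libraries, against a median of 89.2 over all 24. Both ΔRRE libraries among them also had the highest means of 8 acute-phase genes, with sums of 8007 FPKM at CT10 and 10026 FPKM at CT14. The replicate numbers were linked to this measure: the library numbered 1 had the lower male-biased mean in 12 of 12 groups. Results that rest on these libraries are given with and without them. Elovl3 is rhythmic, with a fitted peak 29.0 times its trough, and was at 10.7 and 20.9 FPKM in the WT CT14 pair. The list mean thus depends in part on the time of day, most plainly for WT CT14 replicate 1. All 4 libraries are from CT6, CT10 or CT14, and they were not chosen anew without Elovl3. Leaving them out therefore also removes livers of those times, which bears on the amplitudes given.

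The 8 transporters spanned a wide range of abundance, and the order was much the same in every liver. Slco1b2, the main bilirubin and statin carrier, was highest with a median of 263 FPKM over the 24 libraries (range 168 to 376), followed by Abcc2 at 138 (109 to 226) and Slco1a1 at 88.7 (26.0 to 117). Next came Abcb4 at 59.6 (43.5 to 90.7), Abcc3 at 54.5 (37.7 to 73.7), Abcg2 at 38.4 (18.9 to 50.2) and Slco2b1 at 38.1 (28.9 to 46.8), and Slc22a7 was lowest at 15.6 (4.37 to 24.6). Slco1b2 exceeded Abcc2, and Abcc2 exceeded Slco1a1, in 24 of 24 libraries, although the ranges touched. Slco2b1 and Slc22a7 had ranges that did not overlap. Abcg2 and Slco2b1 could not be ordered, since Abcg2 was the higher in only 14 of 24 libraries, and Slco1a1 exceeded Abcb4 in 18 of 24.

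**Figure D1:**
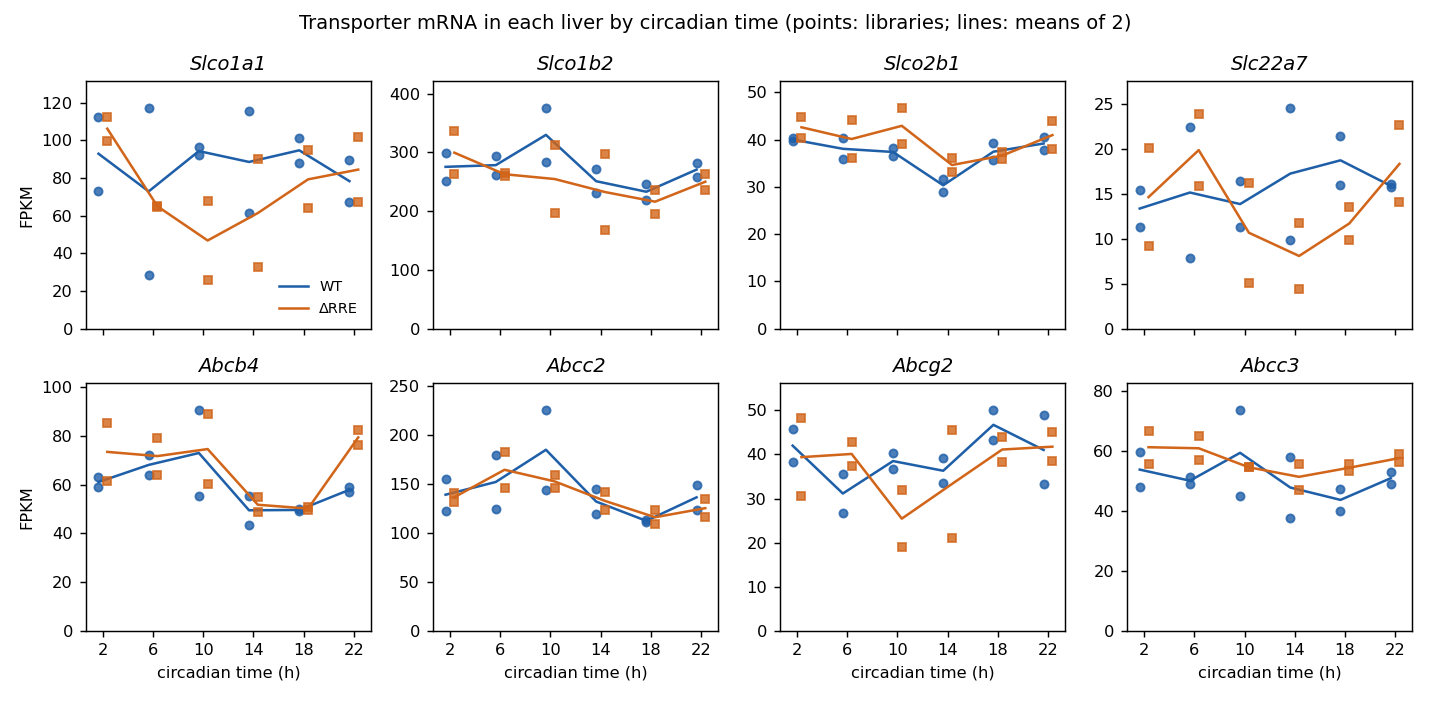
FPKM of each transporter (vertical axis, linear from 0) against circadian time in hours (horizontal axis), with circles and blue lines for WT and squares and orange lines for ΔRRE. Points are single livers and lines join the means of 2; the pairs of Slco1a1 lie as far apart as 28.4 and 117 FPKM at CT6 in WT, whereas Slco2b1 stays between 28.9 and 46.8 FPKM throughout.

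Slco1a1, an organic anion carrier known for its dependence on male hormones, varied more between livers of 1 group than between times. In WT it was at 73.3 and 113 FPKM at CT2, 28.4 and 117 at CT6, 96.5 and 92.2 at CT10, 61.4 and 116 at CT14, 88.1 and 101 at CT18, and 67.4 and 89.4 at CT22. In ΔRRE it was at 99.8 and 113 FPKM at CT2, 64.9 and 65.1 at CT6, 26.0 and 67.7 at CT10, 33.0 and 89.9 at CT14, 64.0 and 94.7 at CT18, and 67.4 and 102 at CT22. The 4 lowest values of the gene were those of the 4 libraries with low male-biased genes, and all 4 lay below the other 20, whose range was 64.0 to 117 FPKM. At CT10 both ΔRRE livers lay below both WT livers, as in 15.4% of all genes, and the pairs overlapped at the other times. The wave common to both genotypes had an amplitude of 0.29 ± 0.16 log2 units (SE) with these libraries and 0.0022 ± 0.091 without them. The adjusted p of the joint test was 0.307 and 0.591. Without them, WT and ΔRRE fitted alone had amplitudes of 0.17 ± 0.10 and 0.21 ± 0.14. Waves that peak at different times cancel in a common fit, so this drop alone does not show that each genotype's wave was lost.

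Slc22a7, the carrier of cyclic nucleotides, orotate and other small organic anions, showed the same unevenness at a lower level. Its WT values were 15.5 and 11.3 FPKM at CT2, 7.89 and 22.4 at CT6, 11.3 and 16.4 at CT10, 9.91 and 24.6 at CT14, 21.5 and 16.0 at CT18, and 16.1 and 15.8 at CT22. Its ΔRRE values were 9.21 and 20.1 FPKM at CT2, 15.9 and 23.9 at CT6, 5.12 and 16.2 at CT10, 4.37 and 11.8 at CT14, 9.89 and 13.5 at CT18, and 22.6 and 14.0 at CT22. The pairs overlapped between genotypes at every time but CT18, where both ΔRRE livers lay below both WT livers, as 6.72% of all genes did at that time. The 3 lowest Slc22a7 values came from 3 of the 4 libraries with low male-biased genes. Its common-wave amplitude was 0.27 ± 0.17 with those 4 libraries and 0.065 ± 0.13 without them. Without them, WT and ΔRRE fitted alone had amplitudes of 0.22 ± 0.15 and 0.26 ± 0.17.

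Slco1b2 changed little over the day. Its WT values ran from 219 FPKM (CT18) to 376 FPKM (CT10) with a median of 267, and its ΔRRE values from 168 FPKM (CT14) to 336 FPKM (CT2) with a median of 262. The time-point mean over both genotypes was highest at CT10 (292 FPKM) and lowest at CT18 (225 FPKM). The common wave had an amplitude of 0.16 ± 0.06 log2 units and peaked at CT5.0 ± 1.5 h (joint adjusted p = 0.298), and leaving out the 4 libraries left the amplitude at 0.16 ± 0.056.

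Slco2b1, an OATP with a broad tissue distribution, was the steadiest member. In WT it was at 40.3 and 39.8 FPKM at CT2, 40.3 and 35.8 at CT6, 38.2 and 36.6 at CT10, 28.9 and 31.8 at CT14, 35.7 and 39.2 at CT18, and 37.9 and 40.5 at CT22. In ΔRRE it was at 40.4 and 44.8 FPKM at CT2, 36.2 and 44.1 at CT6, 39.1 and 46.8 at CT10, 33.1 and 36.1 at CT14, 35.8 and 37.4 at CT18, and 37.9 and 44.0 at CT22. In both genotypes the CT14 mean was the lowest, and in WT its CT14 pair lay below the other 10 values. Both ΔRRE livers lay above both WT livers at CT2, CT10 and CT14, an arrangement shared by 18.6%, 17.4% and 17.4% of all genes at those times.

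Among the canalicular pumps, Abcg2 resembled Slco1a1 in its low libraries. Its WT values were 38.2 and 45.8 FPKM at CT2, 26.7 and 35.6 at CT6, 40.2 and 36.8 at CT10, 33.5 and 39.1 at CT14, 43.3 and 50.2 at CT18, and 33.2 and 48.9 at CT22. Its ΔRRE values were 30.5 and 48.3 FPKM at CT2, 42.9 and 37.4 at CT6, 18.9 and 32.0 at CT10, 21.2 and 45.5 at CT14, 38.4 and 43.9 at CT18, and 45.1 and 38.4 at CT22. The 3 lowest values came from WT CT6 replicate 1, ΔRRE CT10 replicate 1 and ΔRRE CT14 replicate 1, all among the 4 set apart by the male-biased genes. Both ΔRRE livers lay above both WT livers at CT6 and below them at CT10, as 16.2% and 15.4% of all genes did. The common wave peaked at CT21.7 ± 1.5 h with an amplitude of 0.23 ± 0.09, and the amplitude was 0.10 ± 0.062 without the 4 libraries.

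Abcb4, the phosphatidylcholine floppase, had its lowest means at CT14 and CT18 in both genotypes and was higher at the other times. WT livers had 63.0 and 59.1 FPKM at CT2, 72.1 and 64.0 at CT6, 90.7 and 55.1 at CT10, 55.4 and 43.5 at CT14, 49.9 and 49.2 at CT18, and 56.8 and 58.9 at CT22. ΔRRE livers had 85.2 and 61.6 FPKM at CT2, 79.3 and 64.1 at CT6, 60.1 and 89.0 at CT10, 48.6 and 54.8 at CT14, 49.4 and 50.9 at CT18, and 82.5 and 76.1 at CT22. All 4 CT18 livers lay between 49.2 and 50.9 FPKM, and at CT22 both ΔRRE livers were above both WT livers, as in 21.7% of all genes. The common wave had an amplitude of 0.26 ± 0.07 log2 units, a fitted peak 1.43 times its trough, with the peak at CT4.6 ± 1.0 h.

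Abcc2 was also low at CT18, and its fitted peak was later than that of Abcb4, a difference that was not tested. In WT it was at 155 and 123 FPKM at CT2, 180 and 124 at CT6, 226 and 144 at CT10, 145 and 119 at CT14, 114 and 111 at CT18, and 149 and 124 at CT22. In ΔRRE it was at 141 and 132 FPKM at CT2, 183 and 146 at CT6, 146 and 159 at CT10, 123 and 142 at CT14, 123 and 109 at CT18, and 116 and 135 at CT22. The genotypes overlapped at every time. The lowest time-point mean fell at CT18 in both, at 112 FPKM in WT and 116 FPKM in ΔRRE, and the common wave had an amplitude of 0.23 ± 0.06 with its peak at CT7.4 ± 0.9 h. WT and ΔRRE fitted alone gave amplitudes of 0.24 ± 0.10 and 0.23 ± 0.06, with peaks at CT7.6 and CT7.2.

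Abcc3, the pump facing blood, was nearly flat over time. Its WT values were 59.6 and 47.8 FPKM at CT2, 48.8 and 51.2 at CT6, 73.7 and 44.9 at CT10, 57.7 and 37.7 at CT14, 47.3 and 39.9 at CT18, and 48.8 and 52.8 at CT22. Its ΔRRE values were 66.7 and 55.6 FPKM at CT2, 64.8 and 56.8 at CT6, 54.4 and 54.5 at CT10, 46.9 and 55.7 at CT14, 55.5 and 53.1 at CT18, and 56.3 and 58.8 at CT22. Both ΔRRE livers exceeded both WT livers at CT6, CT18 and CT22, where 16.2%, 24.5% and 21.7% of all genes were so placed. The common wave had an amplitude of 0.12 ± 0.06.

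For rhythm over the day, no member passed the threshold with both genotypes tested together, and Abcb4 and Abcc2 came closest to it. A 24-h cosine and sine were fitted to log2(FPKM + 0.1) with limma, and p-values were adjusted over all genes by the Benjamini-Hochberg method. In WT 0 of 8 members had an adjusted p under 0.05, against 10.3% of all genes, and 1 (Abcb4) had an unadjusted p under 0.05, against 27.6%. In ΔRRE the counts were 0, against 4.57%, and 3 (Slco1a1, Abcb4 and Abcc2), against 22.6%. With both genotypes tested together, 0 of 8 passed, against 18.7% of all genes, and 3 (Slco2b1, Abcb4 and Abcc2) had an unadjusted p under 0.05, against 32.9%. The joint adjusted p was 0.0654 for Abcb4, 0.0656 for Abcc2 and 0.141 for Slco2b1, and from 0.251 to 0.489 for the other 5.

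These joint calls were close and depended on how the test was set up. When 1 wave common to both genotypes was tested, 3 of 8 members passed, beside 3437 of 11244 genes. Abcc2 had an adjusted p of 0.00915, Abcb4 of 0.016 and Slco2b1 of 0.0363. With the replicate number as a block, 1 of 8 members (Abcc2, adjusted p = 0.0355) passed the joint test, beside 2213 of 11244 genes. Without the 4 libraries with low male-biased genes the joint adjusted p was 0.182 for Abcc2, 0.25 for Abcb4 and 0.506 for Slco2b1, while the amplitudes were 0.23 ± 0.063, 0.24 ± 0.076 and 0.09 ± 0.043. By the study's 3 criteria, with a harmonic p in place of its own rhythm test, 2 members were rhythmic in WT (Abcc2 and Abcg2), against 37% of all genes, and 4 in ΔRRE (Slco1a1, Slc22a7, Abcb4 and Abcg2), against 35.4%. The median common-wave amplitude of the 8 members was 0.23 log2 units, beside 0.17 over all genes tested. That order depended on the 4 libraries. Without them the median over all genes was 0.17, and only Abcb4 (0.24) and Abcc2 (0.23) among the members lay above it.

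The peaks of the common waves fell into the subjective day for 5 members, from CT2.6 to CT7.4 (Slco2b1, Abcc3, Abcb4, Slco1b2 and Abcc2), and into the late subjective night or the start of the day for Abcg2 (CT21.7), Slco1a1 (CT22.2) and Slc22a7 (0.0378 h after CT0). The standard errors of the peak times ran from 0.9 h for Abcc2 to 2.5 h for Slc22a7. For Slco1a1, WT and ΔRRE fitted alone peaked at CT16.9 ± 4.5 h and CT23.4 ± 1.3 h. For Slc22a7 they peaked at CT17.9 ± 2.9 h and CT1.6 ± 1.6 h. Neither gene had a detected wave in WT (unadjusted limma p of 0.705 for Slco1a1 and 0.443 for Slc22a7). The WT peak times are thus poorly defined, the common peaks are uncertain, and a shift between genotypes was not shown. Among the 8 members, Slco1a1, Slc22a7 and Abcg2 lost the most common-wave amplitude when the 4 libraries were left out.

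**Figure D2:**
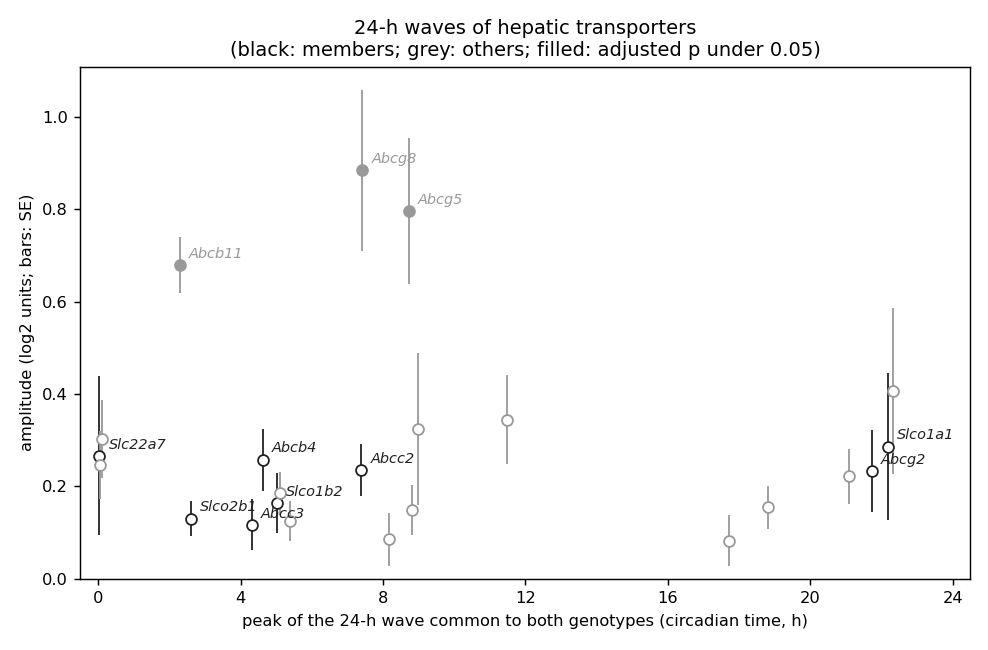
Amplitude of the 24-h wave common to both genotypes in log2 units (vertical axis, bars are SE) against its peak in hours of circadian time (horizontal axis) for the 8 members (black) and 15 other hepatic transporters (grey). Filled points have a joint adjusted p under 0.05: Abcb11, Abcg5 and Abcg8 sit between 0.68 and 0.88, while all 8 members are open and at or under 0.29.

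No difference in rhythm between the genotypes was detected for any member. With limma, 0 of 8 passed the adjusted threshold, against 0.00889% of all genes (1 gene, Arntl), and 0 of 8 had an unadjusted p under 0.05, against 2.84%. The amplitude in ΔRRE minus that in WT was -0.0068 ± 0.12 log2 units (SE) for Abcc2, -0.0033 ± 0.11 for Abcc3, -0.03 ± 0.08 for Slco2b1, 0.04 ± 0.14 for Abcb4 and 0.05 ± 0.13 for Slco1b2. It was larger but less certain for Abcg2 (0.13 ± 0.18), Slc22a7 (0.35 ± 0.32) and Slco1a1 (0.39 ± 0.31), whose lowest ΔRRE values at CT10 and CT14 came from libraries with low male-biased genes. Without the 4 libraries the amplitudes in ΔRRE and WT were 0.21 ± 0.14 and 0.17 ± 0.10 for Slco1a1. They were 0.26 ± 0.17 and 0.22 ± 0.15 for Slc22a7, and 0.086 ± 0.094 and 0.12 ± 0.085 for Abcg2. For these 3 the difference in amplitude was thus smaller without those libraries. The fitted wave difference also reflects the time of the peak. Without those libraries it was 0.38 ± 0.18 for Slco1a1, 0.47 ± 0.26 for Slc22a7 and 0.04 ± 0.13 for Abcg2. With all libraries it was 0.61 ± 0.31, 0.72 ± 0.32 and 0.24 ± 0.18. None passed the test of different rhythm in either setting. With all libraries the error of the amplitude difference was, for these 3, nearly as large as the wave fitted in WT or larger. A gain or loss of that size was thus not detectable.

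The levels of the transporters differed little between ΔRRE and WT. Abcc3 was 1.13-fold (95% interval 1.001 to 1.27), Abcb4 1.11-fold (0.981 to 1.26) and Slco2b1 1.07-fold (0.995 to 1.15) relative to WT, each with 12 livers per genotype. The other 5 had estimates below 1: Abcc2 0.978-fold (0.871 to 1.10), Abcg2 0.917-fold (0.759 to 1.11), Slco1b2 0.917-fold (0.801 to 1.05), Slco1a1 0.832-fold (0.595 to 1.16) and Slc22a7 0.831-fold (0.58 to 1.19). By limma with time as a factor, 0 of 8 passed the adjusted threshold, against 0% of all genes, and 1 of 8 (Abcc3, adjusted p = 0.553) had an unadjusted p under 0.05, against 8.91%. In the higher direction this was 1 of 8, against 7.16% of all genes, and in the lower direction 0 of 8, against 1.75%. That count depended on the scaling: it was 0 of 8 with median-of-ratios factors, which gave 782 such genes in either direction, and 3 of 8 (Slco2b1, Abcb4 and Abcc3, all higher) with TPM, which gave 1564. Of all genes 65.5% had an estimate above 0, and the median log2 fold change was 0.04, beside -0.08 for the 8 members. The sign for Abcc2 changed when the values were rescaled to TPM.

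The intervals hold for this scaling and for all 24 libraries. For Slco2b1, Abcb4, Abcc2, Abcc3 and Slco1b2 a change beyond 1.27-fold up or 0.801-fold down lies outside these 95% intervals. The limits for Slc22a7, Slco1a1 and Abcg2 were wider. With TPM the log2 fold change was 0.19 ± 0.091 for Abcb4 and 0.21 ± 0.083 for Abcc3, above the 0.15 and 0.17 of the main scaling. Without the 4 libraries the log2 fold change was 0.25 ± 0.088 for Abcb4 (adjusted p = 0.462) and 0.22 ± 0.087 for Abcc3 (adjusted p = 0.489), and no member passed the adjusted threshold.

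**Figure D3:**
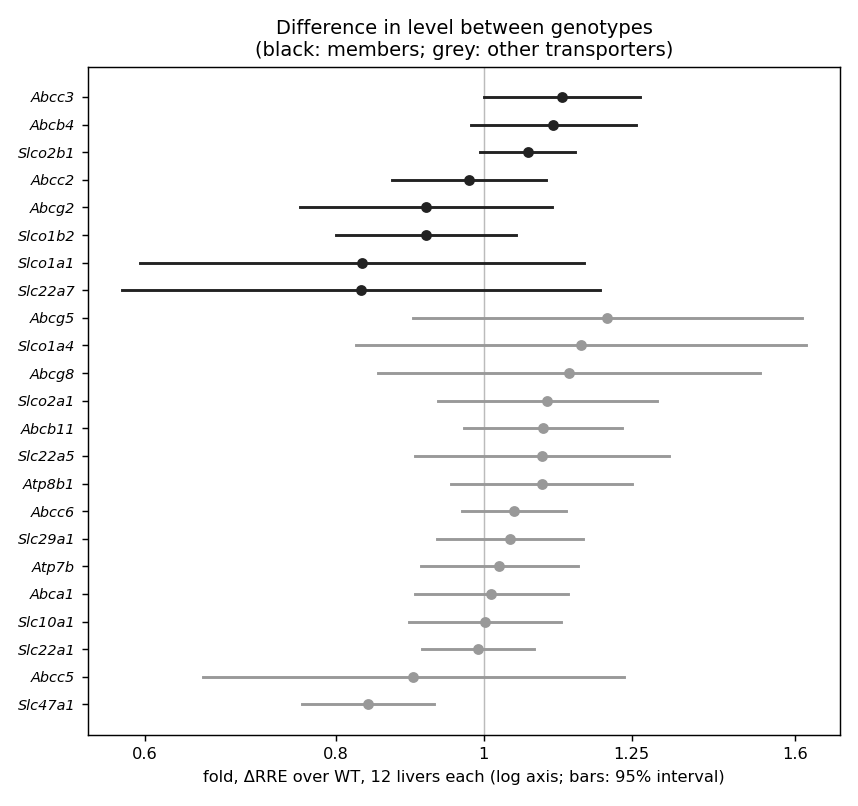
Fold of ΔRRE over WT (horizontal log axis) with 95% intervals from limma, for the 8 members (black, top) and 15 other hepatic transporters (grey). Black points run from 0.831 (Slc22a7) to 1.13 (Abcc3), and Slc22a7 and Slco1a1 have the widest black intervals.

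The members differed in how far apart livers of 1 group lay. The SD between libraries of the same genotype and time was 0.69 log2 units for Slc22a7 and 0.65 for Slco1a1, larger than in 95.5% and 94.7% of the genes tested, and 0.35 for Abcg2. It was 0.27 for Slco1b2, 0.24 for Abcb4, 0.23 for Abcc2 and Abcc3, close to the median of 0.25 over all genes. Slco2b1 had an SD of 0.11, and only 4.37% of genes had one as small or smaller. The 2 libraries of a group differed by up to 4.13-fold in Slco1a1 and by at most 1.22-fold in Slco2b1.

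Over the 24 libraries some members moved together. One set was Slco1a1, Slc22a7 and Abcg2, with Pearson's r of 0.68 (Slco1a1 and Slc22a7), 0.79 (Slco1a1 and Abcg2) and 0.72 (Slc22a7 and Abcg2). A second was Abcb4, Abcc2 and Abcc3, with r of 0.63 (Abcb4 and Abcc2), 0.73 (Abcb4 and Abcc3) and 0.59 (Abcc2 and Abcc3). Between the sets r ran from -0.28 to 0.03. The division was not sharp, since Slco1b2 had r of 0.58 with Abcb4 and 0.51 with Abcc2, and Slco2b1 had 0.53 with Abcb4 (0.03 within pairs). These values describe 24 libraries that share times, genotypes and single livers, and carry no test.

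Without the 4 libraries, r within the first set was -0.01, 0.24 and 0.12, while within the second it was 0.64, 0.77 and 0.66. Within pairs of livers of the same genotype and time the second set moved together, while agreement in sign was less even in the first. The replicate difference had the same sign in 7 of 12 groups for Slco1a1 and Slc22a7, 10 of 12 for Slco1a1 and Abcg2 and 7 of 12 for Slc22a7 and Abcg2, with r over the 12 differences, measured from 0, of 0.75, 0.76 and 0.73. In the second set it had the same sign in 9 of 12 groups for Abcb4 and Abcc2, 9 of 12 for Abcb4 and Abcc3 and 10 of 12 for Abcc2 and Abcc3. Its r over the 12 differences was 0.69, 0.75 and 0.69. For Slco1a1 and Slc22a7 the largest differences came from the pairs that hold the 4 libraries, and r without those pairs was not calculated.

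**Figure D4:**
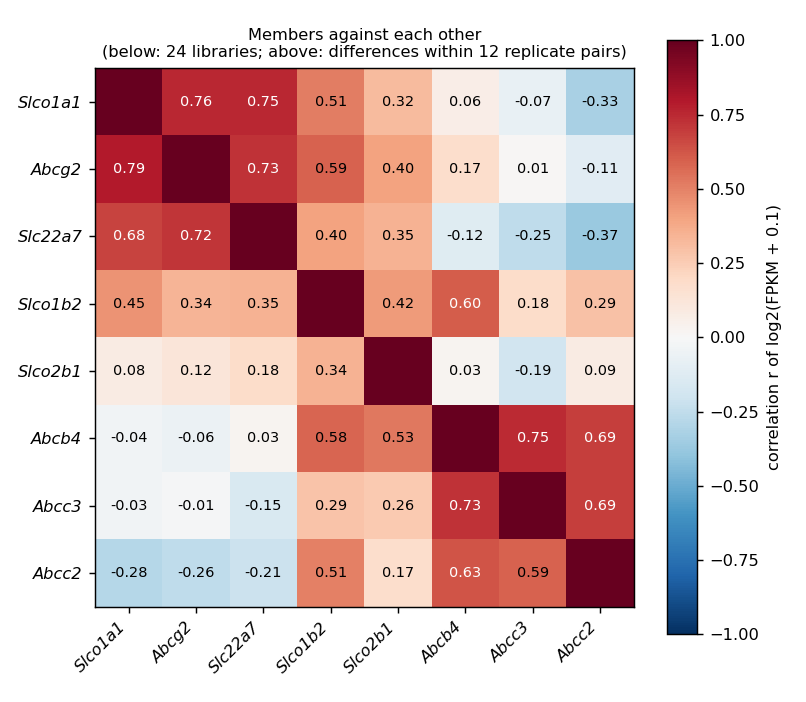
Correlation r between members, with the 24 libraries below the diagonal and the differences within 12 replicate pairs above it, colour from -1 (blue) to 1 (red). The red blocks are Slco1a1, Abcg2 and Slc22a7 (0.68 to 0.79 below the diagonal) and Abcb4, Abcc3 and Abcc2 (0.59 to 0.73).

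The first set followed the male-biased liver genes, a list chosen with earlier results of these data known. Against the mean of the 6 genes, r over 24 libraries was 0.90 for Abcg2, 0.86 for Slco1a1 and 0.80 for Slc22a7, and -0.36 for Abcc2. Within replicate pairs r was 0.89, 0.94 and 0.83, and the difference had the same sign as that of the list in 9, 11 and 8 of 12 groups. Of the genes tested, 0.0445% followed the list within pairs as closely as Slco1a1 or more so, 0.213% as closely as Abcg2 and 0.507% as closely as Slc22a7. Over the 20 libraries without the 4 lowest, r was 0.69 for Abcg2, 0.35 for Slco1a1, 0.29 for Slc22a7 and -0.61 for Abcc2. Leaving the rhythmic gene Elovl3 out of the list gave 0.87, 0.88 and 0.77 over 24 libraries.

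**Figure D5:**
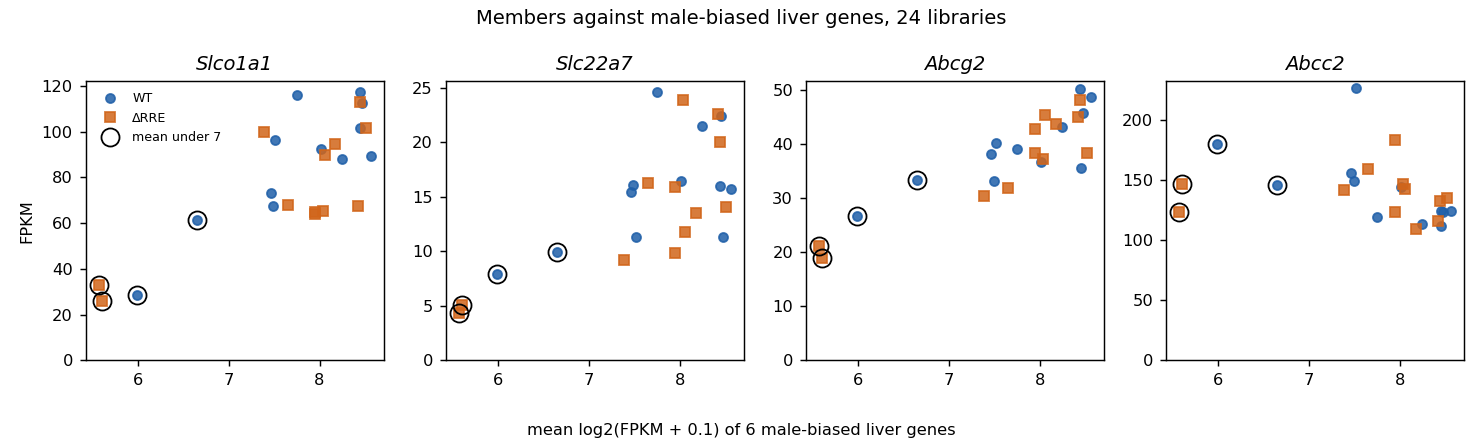
FPKM of Slco1a1, Slc22a7, Abcg2 and Abcc2 (vertical axes, linear from 0) against the mean log2(FPKM + 0.1) of 6 male-biased liver genes (horizontal axis), 1 point per liver, with rings on the 4 libraries whose mean is under 7. The ringed livers hold the 4 lowest values of Slco1a1 (26.0 to 61.4 FPKM) and 3 of the lowest of Slc22a7 and Abcg2, whereas for Abcc2 they lie inside the range of the others.

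Slco1a4, the neighbouring carrier that is higher in female liver, ran the opposite way. It was at 41.1 FPKM in WT CT6 replicate 1 and 9.19 in its partner, at 36.1 and 22.2 in the ΔRRE CT10 pair, at 29.7 and 12.5 in the ΔRRE CT14 pair, and at 18.1 and 20.7 in the WT CT14 pair. Against the male-biased mean r was -0.84 over 24 libraries and -0.88 within pairs, and its replicate difference was opposite in sign to that of Slco1a1 in 9 of 12 groups. Against the mean of the acute-phase genes, r for Slco1a1 and Abcg2 was -0.56 and -0.51 over 24 libraries and -0.39 and -0.041 without the 4. Over the 12 ΔRRE libraries r was -0.80 and -0.63, and over the 12 WT libraries 0.03 and 0.0057, a difference that was not tested. Abcc3 had r of -0.20 with these genes over 24 libraries and -0.57 within pairs, where its difference had the same sign as theirs in 0 of 12 groups. The part of either list in the transporter values was not tested.

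The genes most like each member over the 24 libraries were mostly different ones, and only Serpina12 was shared, by Slco1a1 and Abcg2. For Slco1a1 they were Ces3a (r = 0.87), Serpina12 (0.87) and Mup3 (0.86), for Abcg2 Gpr108 (0.90), Slc22a28 (0.87) and Serpina12 (0.87), and for Slc22a7 Gm21320 (0.84), Gm13773 (0.84) and Mup11 (0.82). Abcb4 was most like Hbp1 (0.90), Pik3c3 (0.88) and Slc4a4 (0.87), and Abcc2 most like Bbox1 (0.86), Ppp2cb (0.80) and Soat2 (0.79). Slco1b2 was nearest to Glul (0.86), the glutamine synthetase of hepatocytes around the central vein, then to Nxpe2 (0.82) and Acbd5 (0.80). Slco2b1 was nearest to Trim44 (0.90), Col18a1 (0.82) and Rfc1 (0.82), and Abcc3 to Il10rb (0.78), Prpf19 (0.78) and Creg1 (0.75). No other member was among the 3 nearest genes of any member.

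Of 21 other hepatic transporters, 15 were expressed at a mean of at least 1 FPKM, and 3 of the 15 were rhythmic with both genotypes tested together, against 18.7% of all genes. Abcb11, the bile salt export pump, had a common-wave amplitude of 0.68 ± 0.06 and peaked at CT2.3, with 143 and 150 FPKM at CT2 and 48.5 and 55.1 at CT14 in WT, and 134 and 151 at CT2 and 60.8 and 63.4 at CT14 in ΔRRE. Abcg5 and Abcg8, partners in the sterol exporter, had amplitudes of 0.80 ± 0.16 and 0.88 ± 0.17 with peaks at CT8.7 and CT7.4. Slc22a5, the carnitine carrier, passed in WT (amplitude 0.40 ± 0.10, adjusted p = 0.0481), and its amplitude in ΔRRE was 0.29 ± 0.17 (adjusted p = 0.492). The difference in rhythm had an adjusted p of 0.9999. The bile salt uptake carrier Slc10a1 had a common-wave amplitude of 0.15 ± 0.05 and a joint adjusted p of 0.201. None of the 15 passed the limma test of level or of different rhythm, and 1 (Slc47a1, log2 fold change -0.25 ± 0.07, adjusted p = 0.332) had an unadjusted p under 0.05 for level. The 6 that were not tested, Abcb1a, Abcb1b, Abcc1, Abcc4, Slc51a and Slc51b, had means from 0.144 to 0.852 FPKM.

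Among 16 transcription factors known to act on transporter genes, 7 were rhythmic with both genotypes tested together, against 18.7% of all genes. They included the PAR-bZIP activators Dbp (common-wave amplitude 3.39 ± 0.27, peak CT10.9) and Tef (1.41 ± 0.11, CT12.6), the D-box repressor Nfil3 (1.29 ± 0.13, CT22.8), the growth hormone effector Stat5b (0.64 ± 0.06, CT1.9), the liver factor Hnf4a (0.19 ± 0.05, CT13.2), and the xenobiotic receptor PXR, Nr1i2 (0.25 ± 0.06, CT14.9). Nfe2l2 and Ahr, sensors of oxidative and aryl hydrocarbon stress, had common-wave amplitudes of 0.09 ± 0.06 and 0.05 ± 0.08. None of the 16 passed the limma test of different rhythm or of level, while 0 and 3 (Nr5a2, Stat5b and Nfil3) had an unadjusted p under 0.05, all 3 higher in ΔRRE.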

How the data were processed

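Poly(A)-tailed RNA of 24 livers had been sequenced from directional libraries. The authors deposited FPKM values per gene and library, without pooling. The submitters' processing notes name Trimmomatic 0.39, HISAT2 2.1.0, StringTie 1.3.5 and the mm10 build. The annotation and the strand setting of the counting are not given in the sources used here. These values hold no read counts, so the depth is unknown and counting error is not given. A joint FPKM table was not used.

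Here log2(FPKM + 0.1) was analysed for the genes averaging 1 FPKM or more over the libraries, with limma 3.58.1 (R 4.3.3, intensity-dependent prior). The 5 tests were of a 24-h cosine and sine in WT, in ΔRRE and in both together, of a different rhythm between genotypes, and of a different level with time as a factor. Adjusted p-values are Benjamini-Hochberg values over all genes, with a threshold of 0.05. Amplitudes are from midline to peak. BIO_CYCLE, the study's rhythm test, was not run; its 3 criteria with the harmonic p under 0.3 were an alternative. The steps were tested on simulated data. No 2 libraries shared more than 0.0207% of their non-zero values.

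The members and gene lists were chosen with earlier results of these data known. Genes named are the members, the 3 most correlated with each, listed genes that passed a test, the listed genes used to describe libraries, Arntl, and a few named after their values were seen (Slc10a1, Slco1a4, Slc47a1, Nfe2l2, Ahr and genes under the limit). One listed gene that passed a test and 1 promoter site are not reported here. Python 3.11.15, NumPy 2.4.6, pandas 2.3.3 and matplotlib 3.10.9 were used for descriptions and figures, and GENCODE M21 and RefSeq for positions and promoters.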

Additional observations from a re-analysis of the deposited data

Results flagged for a closer look

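Arntl (Bmal1) was the single result marked by a test of the difference between genotypes: its rhythm differed between WT and ΔRRE with an adjusted p of 0.0463 (limma), with amplitudes of 2.57 ± 0.31 and 0.29 ± 0.09 log2 units. None of the 8 transporters was marked.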

How the results depend on the processing

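The counts of members with an adjusted p under 0.05 were 0 in the 5 tests. They stayed at 0 for rhythm in WT alone, rhythm in ΔRRE alone, different rhythm and level under all alternatives run with an adjusted p. The study's 3 criteria are a different measure, with an unadjusted p under 0.3. By them 2 members were rhythmic in WT (Abcc2 and Abcg2) and 4 in ΔRRE (Slco1a1, Slc22a7, Abcb4 and Abcg2). The same criteria called 37% and 35.4% of all genes (4156 and 3985). For both genotypes together, 1 common wave called 3 members and 3437 genes against 2107, and leaving out single libraries gave 0 to 1 members (Abcb4 in 4 of 24 fits, those without WT CT10 replicate 1 or replicate 2 of ΔRRE CT2, CT6 or CT10, and Abcc2 in 2 of 24, those without WT CT6 replicate 2 or WT CT22 replicate 1) and 1753 to 2167 genes. The same ranges were 740 to 1019 genes in WT, 298 to 554 in ΔRRE, 0 to 1 for different rhythm and 0 to 1 for level, with 0 members in each. Leaving out WT CT10 replicate 2 gave the 740 and ΔRRE CT14 replicate 1 the 298. Genes rhythmic in WT numbered 1157, but 519 with no filter and 361 with time as a factor; in ΔRRE 514, but 197 with no filter and 957 with a shared spread; together 1087 with time as a factor. Genes of different rhythm numbered 1, but 0 with 0.01 FPKM added, no filter, a mean of at least 5 FPKM, TPM, or a prior without trend, and 4 with time as a factor. Leaving out the 4 libraries with low male-biased genes, chosen after the data had been seen, gave 737 genes in WT, 174 in ΔRRE and 1335 together, with 0 members in each; fewer libraries were then fitted. The log2 fold change of Abcc2, -0.03, became 0.0097 with TPM and 0.037 without the 4 libraries, and ranged from -0.073 to 0.018 when single libraries were left out, highest and above 0 without WT CT10 replicate 1.

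With the replicate number as a block, 1 member (Abcc2, adjusted p = 0.0355) was rhythmic in both genotypes together, beside 2213 of 11244 genes. In that setting 0 genes differed in rhythm. Over all genes, same-numbered libraries paired weakly at most: the correlation of replicate differences between groups ran from -0.14 to 0.30, over 0.1 in 20 of 66 pairs of groups. That check takes all genes at once and cannot exclude a shared difference in single genes, such as those given below. The cause of the changes under these alternatives was not tested. Each time point had 2 livers per genotype and the read depth is unknown, so no limit of detection can be given.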

Other observations

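The replicate number itself carried a difference. In a limma fit with genotype and time as groups, chosen after the data had been seen, Slco1a1 was higher in the libraries numbered 2 than in those numbered 1 by 0.69 ± 0.16 log2 units (adjusted p = 0.102), in 11 of 12 groups. Abcg2 was higher by 0.32 ± 0.11 (adjusted p = 0.208, 9 of 12) and Slc22a7 by 0.58 ± 0.21 (adjusted p = 0.239, 8 of 12), whereas Abcc2 had an estimate of -0.18 ± 0.08 (adjusted p = 0.314) and was lower in the libraries numbered 2 in all but 3 of 12. Slco1a4 was at -0.67 ± 0.17 (adjusted p = 0.126). No member passed the adjusted threshold, which 0.08% of all genes did. An unadjusted p under 0.05 was found for Slco1a1, Abcg2, Slc22a7 and Abcc2, and for 13.9% of all genes. Selenbp2 of the male-biased list passed it, at 1.81 ± 0.28 (adjusted p = 0.0312) and higher in 12 of 12 groups. The labels do not say whether a number marks a cage, a cohort or a day, and what the numbers stand for was not tested.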
